A study of Mus musculus with 16 samples.

Results

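The Zic genes encode zinc finger transcription factors of the vertebrate brain and dorsal neural tube, and 4 of them, Zic1, Zic2, Zic4 and Zic5, were followed here in SINE KO and WT mice, in the cerebellum and in the brain that remains without it. They were taken by gene symbol: every probe set (a set of short probes that reads 1 transcript) whose only symbol in the platform annotation is one of these genes. This gave 8 probe sets of 4 genes, among 45101 probe sets in all, of which 34958 carry a single symbol and name 18194 genes. Zic1 and Zic4 have 2 probe sets each (1423477_at and 1439627_at; 1421539_at and 1456417_at), Zic2 has 1 (1421301_at) and Zic5 has 3 (1425666_at, 1456140_at and 1456219_at). None of these names carries the suffix that marks a set shared by several transcripts, so each is annotated as reading its own gene.

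The 16 Affymetrix arrays come from 8 groups of 2: KO female cerebellum, WT female cerebellum, KO male cerebellum, WT male cerebellum, and the same groups for the rest of the brain. KO mice are homozygous for a small CRISPR/Cas9 deletion just after the start codon that a SINE repeat supplies to a brain isoform of Pgc1α, on a C57BL/6J background and from 1 founder line. The deletion is carried in the germ line, the isoform's RNA is still made, and the reference Pgc1α isoform is left intact. WT mice are littermates matched for age, which is not given as a number in the sources used here, and no agent was applied. Brain stem remnants were cut away by hand before the brain was split. All 5 Ppargc1a probe sets were detected on all 16 arrays, which checks no genotype label.

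Zic proteins bind GC-rich DNA, interact with the Gli factors of Hedgehog signalling, and act early in dorsal neural tissue and in the meninges. In the cerebellum they are best known from granule cells, whose precursors and adult neurons express Zic1 and Zic2, and mice without Zic1 have a small cerebellum. In humans, loss of ZIC1 together with ZIC4 has been tied to Dandy-Walker malformation of the cerebellum, and ZIC2 mutations to holoprosencephaly, a failure of the forebrain to divide.

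The deposited values are call levels and not intensities, and take 5 distinct values. Level 2 was read as detected, level 1 as marginal and level 0 or lower as not detected. A call places a transcript in a sample and says nothing of its amount above that limit, so no fold change was computed. In tissue pieces such as these, fewer cells of a type and less RNA per cell cannot be told apart. The number of detected probe sets lay between 25517 and 28155 on each array. The WT female cerebellum replicate 2 stood apart from the other cerebellum arrays: of 17 probe sets of forebrain markers it detected 13, against 6 to 9 on the other 7, of 41 probe sets of granule cell markers 28, against 34 to 36, and of 36 probe sets of Purkinje cell markers 27, against 31 to 34. The Zic results that rest on it are given with and without it.

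Across all 128 values of the 8 Zic probe sets (8 on each of 16 arrays), 104 were at level 2, 3 at level 1 and 21 at level 0, and none was lower. Both Zic1 probe sets, Zic4 1456417_at, Zic5 1456140_at and Zic5 1456219_at were detected on all 16 arrays, in both brain parts, both sexes and both genotypes. These 5 probe sets therefore hold no difference of any kind in their calls. The other 3, Zic2 1421301_at, Zic4 1421539_at and Zic5 1425666_at, were detected on more cerebellum than rest-of-brain arrays. Over the whole table, 48% of probe sets were detected on all 16 arrays, 27% on none and 25% on some. No Zic probe set was without a detected call.

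**Figure D1:**
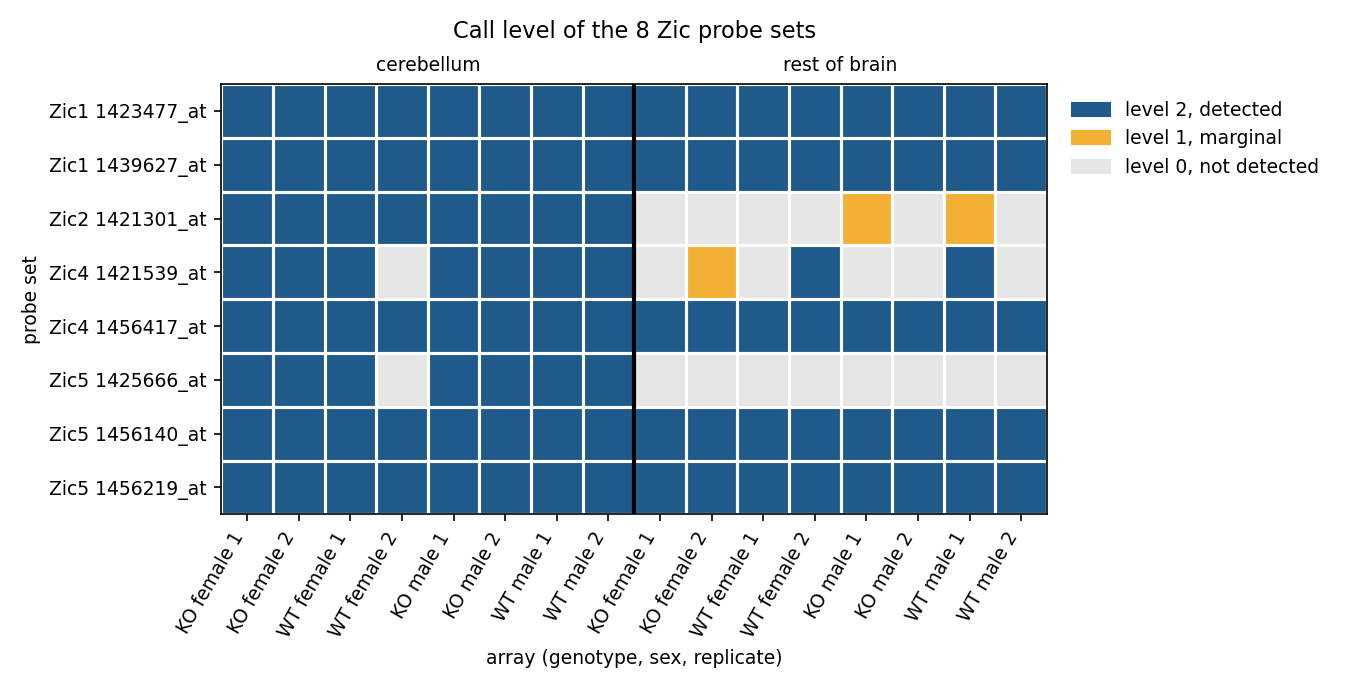
Call level of each Zic probe set (rows) on each of the 16 arrays (columns, with genotype, sex and replicate number), cerebellum left of the line and rest of brain right of it. Of the 8 rows 5 are at level 2 throughout, and the Zic2, Zic4 1421539_at and Zic5 1425666_at rows lose most or all of their detected calls in the rest of the brain.

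These genes lie in pairs. In the GRCm38.p6 annotation Zic1 and Zic4 sit next to each other on chromosome 9 on opposite strands, with no gene starting between them. Zic5 and Zic2 sit on chromosome 14, and the 1 gene that starts between them is 2610035F20Rik, which codes for no protein. The promoter sequences of Zic1, Zic4 and Zic5 are from RefSeq (GRCm38.p6, 250 bases before the gene start and 50 after it). They set Zic1, whose calls never varied, beside Zic4 and Zic5, which each have a varying probe set. Zic4 and Zic5 also have probe sets detected on every array, so as genes they did not vary. Zic2, the gene that did, had no promoter entry, so 3 of the 4 genes are shown. Capitals mark the CCAAT box and the E-box CACGTG, searched on both strands, and they do not overlap. The TATA box (TATAAA), a Zic motif (CCTGCTG) and a Gli motif (GACCACCCA) were also searched on both strands.
Zic1, chr9:91365719-91366018, minus strand: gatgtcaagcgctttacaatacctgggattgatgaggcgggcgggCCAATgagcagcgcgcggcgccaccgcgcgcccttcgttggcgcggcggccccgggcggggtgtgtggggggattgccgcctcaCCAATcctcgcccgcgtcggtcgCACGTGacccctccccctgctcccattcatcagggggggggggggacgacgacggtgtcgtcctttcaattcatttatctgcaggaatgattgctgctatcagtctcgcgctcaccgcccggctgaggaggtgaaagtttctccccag
Zic4, chr9:91368722-91369021, plus strand: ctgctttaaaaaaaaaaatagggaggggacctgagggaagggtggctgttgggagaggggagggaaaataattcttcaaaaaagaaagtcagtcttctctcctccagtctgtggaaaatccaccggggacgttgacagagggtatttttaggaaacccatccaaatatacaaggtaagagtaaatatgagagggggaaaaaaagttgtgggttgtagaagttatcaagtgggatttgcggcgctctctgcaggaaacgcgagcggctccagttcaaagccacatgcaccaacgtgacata
Zic5, chr14:122465609-122465908, minus strand: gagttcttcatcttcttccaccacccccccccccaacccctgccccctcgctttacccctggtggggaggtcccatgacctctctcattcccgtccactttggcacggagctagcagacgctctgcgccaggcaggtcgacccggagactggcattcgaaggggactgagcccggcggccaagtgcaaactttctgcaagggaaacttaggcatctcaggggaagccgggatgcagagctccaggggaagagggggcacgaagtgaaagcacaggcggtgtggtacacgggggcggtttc

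The Zic1 window held 31 CpG dinucleotides and 65.3% G or C, the Zic5 window 15 and 62.7%, and the Zic4 window 8 and 46%, against medians of 7 and 52.7% over the 32851 RefSeq promoters of this length. Of those promoters 10.6% held as many CpG as Zic1 or more. Only the Zic1 window had a match among the 5 motifs, with 2 CCAAT boxes and 1 CACGTG E-box, which 37.4% and 7.15% of all promoters hold at least once. The TATA box was in 13.6% of promoters, the Zic motif in 10.5% and the Gli motif in 0.253%. These are letters in a window and not measured binding.

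Zic2, the member that in mice and humans is also needed for division of the forebrain, separated the brain parts completely. Its probe set was at level 2 on all 4 KO and all 4 WT cerebellum arrays. In the rest of the brain it was at level 0 on 6 arrays and at level 1 on 2, the KO male replicate 1 and the WT male replicate 1. No rest-of-brain array reached the detected level, so the groups did not overlap. Over all probe sets, 0.0554% (25 of 45101) were detected on all 8 cerebellum arrays and no rest-of-brain array. Fisher's exact test (two-sided) on 8 of 8 against 0 of 8 arrays gave p = 0.000155, the smallest value 8 against 8 arrays allow. With Benjamini-Hochberg adjustment over the whole table, Fisher's exact test gave Zic2 an adjusted p of 0.0501, which misses the 0.05 threshold, and 0% of all 45101 probe sets passed.

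That adjusted value is shared by the 140 probe sets that switched completely in either direction, and it depends on how many did. With any single array left out, Zic2 passed, with adjusted p from 0.0273 (without WT female cerebellum replicate 2) to 0.0487 (Fisher's exact test). Leaving an array out does not change the unadjusted p of a completely separated probe set, and those complete before stay so. The adjusted p could therefore only stay or fall as more probe sets became complete (144 to 257 of 45101 passed). These passes are no separate support for Zic2. Most probe sets of the table can never reach a p under 0.05 because nearly all or nearly no arrays detect them. Among the 3873 that can, Zic2 had an adjusted p of 0.0043 (Fisher's exact test). The separation was complete in females and in males, and in KO and in WT mice, each with 4 of 4 cerebellum and 0 of 4 rest-of-brain arrays (Fisher's exact test, p = 0.0286 each, the smallest 4 against 4 arrays allow). Complete separation over all arrays forces this, so the subsets are no separate support. Counting marginal calls as detected turned the comparison into 8 of 8 against 2 of 8 arrays (Fisher's exact test, adjusted p = 0.492 over the whole table and 0.0437 among probe sets that can reach a p under 0.05).

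Zic5, a family member studied mainly in neural crest and the dorsal neural tube, had 1 probe set with a cerebellar pattern and 2 with none. Zic5 1425666_at was at level 2 on both KO female, both KO male and both WT male cerebellum arrays and on WT female cerebellum replicate 1. It was at level 0 on WT female cerebellum replicate 2 and on all 8 rest-of-brain arrays. The groups thus overlapped through 1 array. Fisher's exact test on 7 of 8 against 0 of 8 arrays gave p = 0.0014, an adjusted p of 0.161 over the whole table and of 0.0138 among the 3873 probe sets that can reach a p under 0.05. Without WT female cerebellum replicate 2, which detected more forebrain and fewer granule cell markers than the other cerebellum arrays, Zic5 1425666_at was detected on 7 of 7 against 0 of 8 arrays (Fisher's exact test, adjusted p = 0.0273 over the whole table). That array is the only cerebellum array at level 0 here, so leaving it out had to make the separation complete. The same run called 257 of all 45101 probe sets. It is no separate support for Zic5. The part that the tissue make-up of that array plays in its Zic calls was not tested.

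Zic4, the neighbour of Zic1 and expressed beside it in the developing cerebellum, was less sharply divided. Zic4 1421539_at was at level 2 on all 4 KO cerebellum arrays and on 3 of 4 WT cerebellum arrays, WT female replicate 2 being at level 0. In the rest of the brain it was at level 2 on WT female replicate 2 and WT male replicate 1, at level 1 on KO female replicate 2 and at level 0 on the other 5 arrays. Fisher's exact test on 7 of 8 against 2 of 8 arrays gave p = 0.0406, with an adjusted p of 1 over the whole table and 0.126 among the 3873 probe sets. Without WT female cerebellum replicate 2 it was 7 of 7 against 2 of 8, with an adjusted p of 0.0371 among the probe sets that can reach a p under 0.05 (Fisher's exact test) and none below 0.05 over the whole table. Leaving out the only cerebellum array that missed it had to make the cerebellum count complete. In that run 986 of the 4760 probe sets that can reach such a p passed.

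Set against the whole table, 3 of the 8 Zic probe sets had an unadjusted p under 0.05 towards the cerebellum, against 1.04% (468) of all probe sets. These are the 3 varying ones, and only they of the 8 can reach such a p at all. Likewise, all 468 lie among the 3873 probe sets that can. Among the 3873 probe sets of that kind 5.55% passed after adjustment with more cerebellum arrays, and 2 of the 3 Zic probe sets did, Zic2 and Zic5 1425666_at. No Zic probe set was detected on more rest-of-brain than cerebellum arrays. In that direction 1.73% of all probe sets had an unadjusted p under 0.05, and 11.5% of the 3873 passed after adjustment. When a gene was taken as detected on an array with at least 1 detected probe set of its own, Zic1, Zic4 and Zic5 were detected on all 16 arrays and Zic2 alone varied. It then had an adjusted p of 0.0464 over 18194 genes (Fisher's exact test), of which 61 (0.335%) passed.

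**Figure D2:**
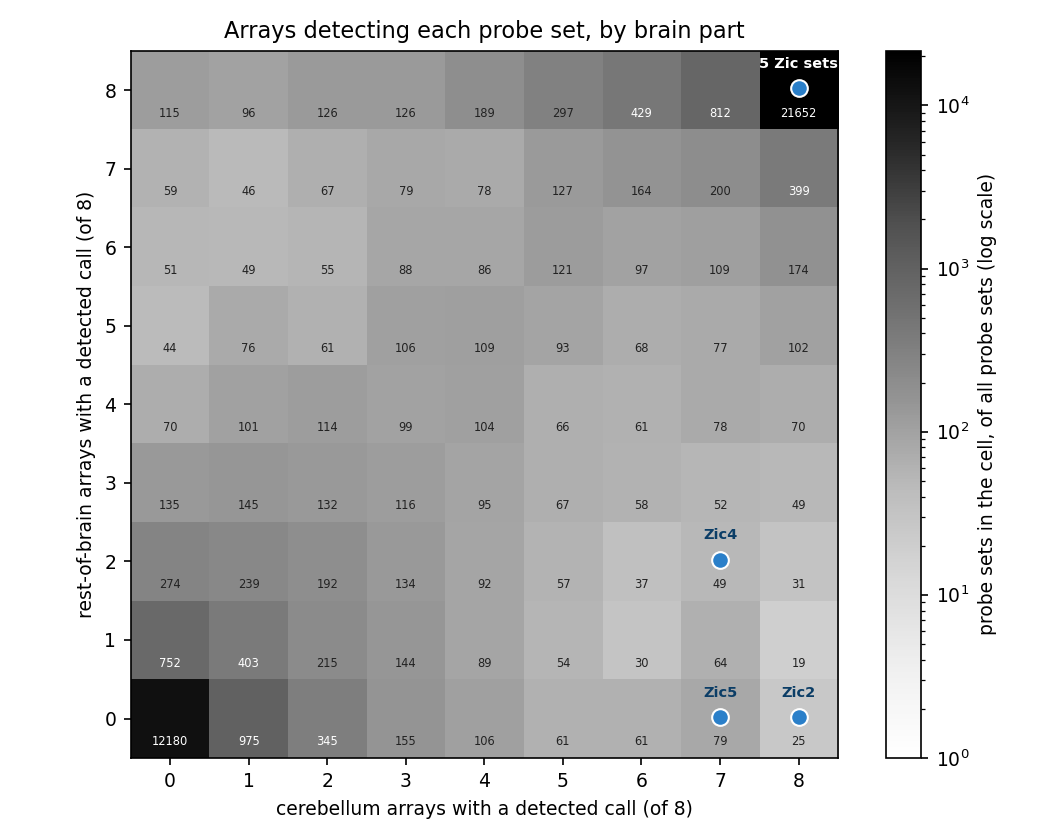
Arrays that detected a probe set, among the 8 of cerebellum (horizontal axis) and the 8 of rest of brain (vertical axis); each cell gives how many of all 45101 probe sets fall in it, shaded on a log scale, and blue points mark the Zic probe sets. Zic2 sits in the corner of 25 probe sets detected on every cerebellum and no rest-of-brain array, and 5 Zic probe sets sit among the 21652 detected on all 16.

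Probe sets of 1 gene did not always agree. Zic4 has 1 probe set detected on all 16 arrays and 1 on 9, and Zic5 has 2 on all 16 and 1 on 7. Such a split was common: of 4694 genes with 2 probe sets, 34.7% had 1 detected on all 16 arrays and the other on fewer, and of 2366 genes with 3, 58.4% had at least 1 of each kind. Zic2 1421301_at and Zic4 1421539_at are tied by the annotation to a RefSeq transcript of their own gene, while the other 6 Zic probe sets are not. Among the varying probe sets, Zic2 and Zic5 1425666_at had the same call on 15 of 16 arrays, Zic4 1421539_at and Zic5 1425666_at on 14, and Zic2 and Zic4 1421539_at on 13.

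Between KO and WT mice the Zic calls showed no separation. Zic2 was detected on 4 of 8 KO and 4 of 8 WT arrays, Zic4 1421539_at on 4 KO and 5 WT arrays, and Zic5 1425666_at on 4 KO and 3 WT arrays (Fisher's exact test, p = 1 each, adjusted p = 1). For genotype, 0% of all probe sets passed after adjustment, and 0.0843% (38 probe sets) had an unadjusted p under 0.05, none of them a Zic probe set. Permuting the genotype labels within sex and brain part gave the same for all 3 (exact test, p = 1 each). That permutation cannot decide here: the calls of Zic2 and Zic5 1425666_at allow no other p, and those of Zic4 1421539_at none under 0.05. The pooled Fisher's exact test cannot decide for Zic2 and Zic5 1425666_at either. Their calls followed brain part, and each genotype has 4 arrays of each part, which fixes equal or nearly equal counts. Without WT female cerebellum replicate 2, Zic4 1421539_at was detected on 4 of 8 KO and 5 of 7 WT arrays (Fisher's exact test, p = 0.608), and Zic5 1425666_at on 4 of 8 KO and 3 of 7 WT arrays (Fisher's exact test, p = 1). Each brain was split into both parts, so the 8 arrays of a genotype may hold 2 arrays of 1 mouse, and the labels do not say which. Within the cerebellum, Zic4 1421539_at and Zic5 1425666_at were each on 4 of 4 KO and 3 of 4 WT arrays (Fisher's exact test, p = 1 each). Within the rest of the brain, Zic4 1421539_at was on 0 of 4 KO and 2 of 4 WT arrays (Fisher's exact test, p = 0.429). In either part these numbers of detected arrays allow no smaller p. These calls cannot show a change in amount in a gene that both genotypes express, and 5 of the 8 probe sets are at their ceiling on every array.

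In the female cerebellum, both KO arrays detected all 8 Zic probe sets, WT replicate 1 detected 8 and WT replicate 2 detected 6. The 2 missing there were Zic4 1421539_at and Zic5 1425666_at. No Zic probe set was detected in the KO pair and missed in the WT pair, against 0.743% of all probe sets, and none the other way round, against 0.71%. The genotype difference in the female cerebellum calls thus lay between the WT replicates. In the male cerebellum, both KO and both WT arrays detected all 8, so 0 Zic probe sets fell in either class, against 0.313% of all probe sets for KO alone and 0.792% for WT alone. No exact test of 2 against 2 arrays can reach a p of 0.05, and none was run.

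In the rest of the brain, all 4 KO arrays detected 5 Zic probe sets. Of the WT arrays, female replicate 2 and male replicate 1 detected 6, the sixth being Zic4 1421539_at, and the other 2 detected 5. None was detected on both arrays of one genotype and neither of the other, in females (background 0.45% in KO alone and 0.49% in WT alone) or in males (0.576% for KO and 0.448% for WT). Zic4 1421539_at was thus detected on 4 of 4 cerebellum and 0 of 4 rest-of-brain arrays in KO mice, and on 3 of 4 cerebellum and 2 of 4 rest-of-brain arrays in WT mice. The difference between the genotypes in this brain-part contrast did not pass (exact permutation within sex and brain part, 1296 arrangements, 75 percentage points, p = 0.25), nor without WT female cerebellum replicate 2 (exact permutation, 648 arrangements, 50 percentage points, p = 0.5). Each p is the smallest that these calls allow in its run, so neither run could pass and the question stays undecided. The difference was looked at because of these calls. For Zic2 and Zic5 1425666_at the same exact permutation gave p = 1, the only value their calls allow, so it decides nothing for them.

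**Figure D3:**
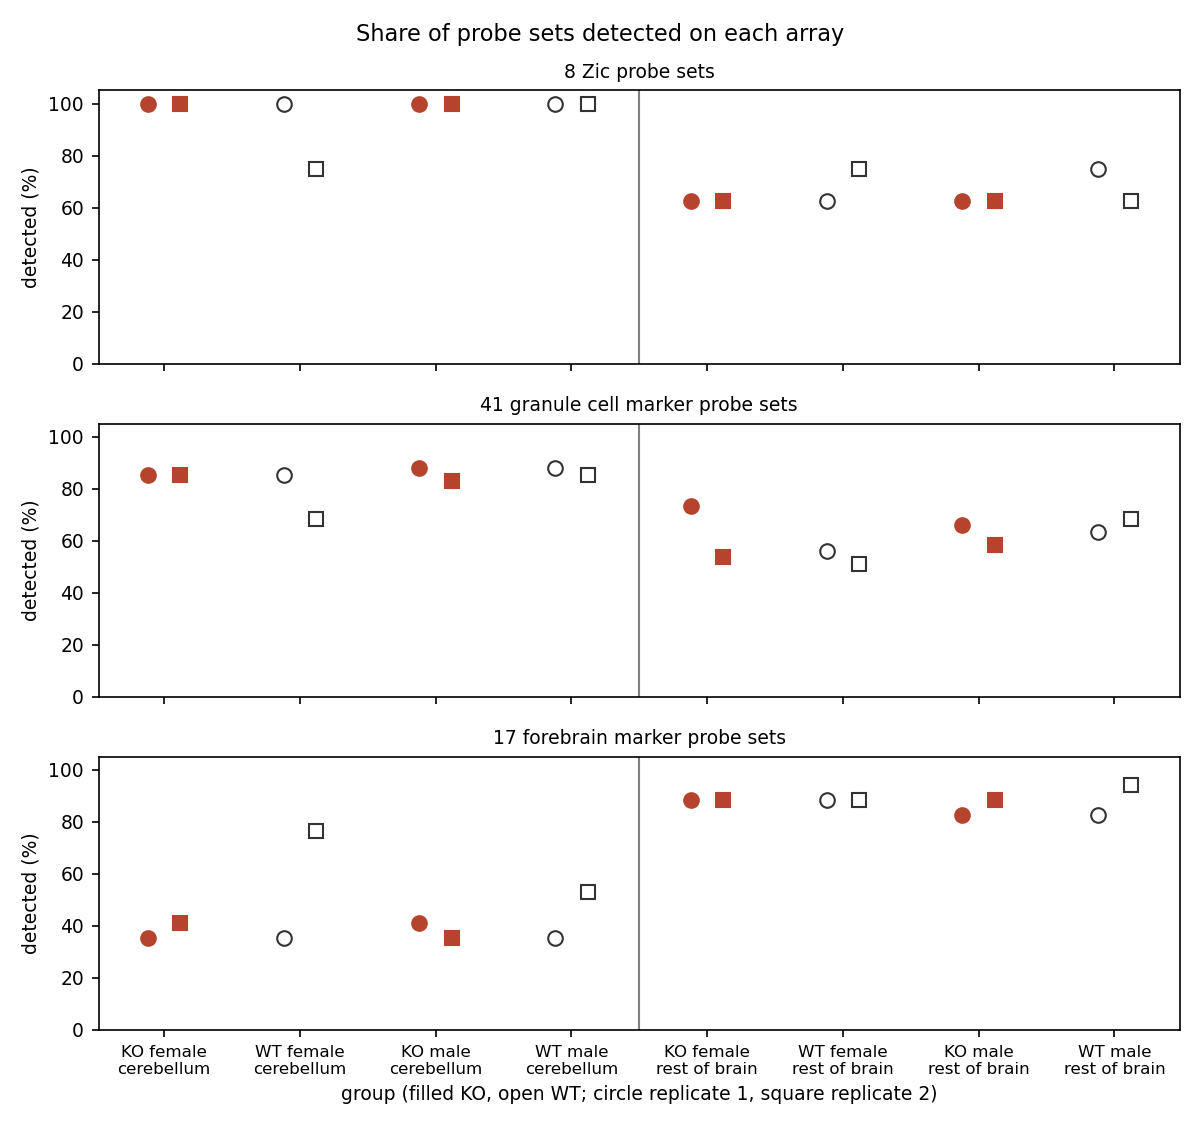
Share of probe sets detected on each array (vertical axis, %), 1 point per array, for the 8 Zic probe sets, 41 of granule cell markers and 17 of forebrain markers; filled points are KO, open points WT, circles replicate 1 and squares replicate 2. The WT female cerebellum replicate 2 is at 75% of Zic, 68.3% of granule cell and 76.5% of forebrain probe sets, while the other cerebellum arrays are at 100%, 82.9% to 87.8% and 35.3% to 52.9%.

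The Zic2 calls were matched on all 16 arrays by 24 other probe sets, 18 of which name a gene. The 5 named by rule, each through 1 probe set and with genes of the marker lists taken first, were Barhl1 and Barhl2, homeobox factors of granule cell precursors in the rhombic lip, Lhx1, a LIM homeobox factor of Purkinje cells, Pax3, a paired box factor of the dorsal neural tube, and AW011738. The likeness is of detected calls over 16 arrays from the same 2 brain parts, and is a description. For Zic5 1425666_at, 61 other probe sets matched on all 16 arrays, among them 1 of 5 of Pax6, a granule cell factor, and 1 each of Lhx1, 4930447F24Rik and 8430419K02Rik. The other 4 Pax6 probe sets were on 16, 12, 4 and 1 arrays, and the Lhx1 probe set is not the one that matched Zic2. Another was the only probe set of 2610035F20Rik, the RNA gene that starts between Zic5 and Zic2. It was detected on 7 of 8 cerebellum arrays, all but WT female replicate 2, and on 0 of 8 rest-of-brain arrays, and matched Zic2 on 15 of 16. Zic4 1421539_at had no identical probe set, and 18 matched it on 15 arrays. Those named are single probe sets of Neurod2, a neuronal differentiation factor, Ccnjl, Cerkl, Emid1 and Krt25, each detected on 7 cerebellum arrays and 1 rest-of-brain array. Of the other 2 Neurod2 probe sets, 1 was on all 16 arrays and 1 on none.

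Calls of most relatives and partners of the Zic factors were at ceiling or floor and could not differ between the brain parts. Of the Gli and Glis zinc finger genes, 6 had 10 probe sets, 3 on all 16 arrays and 3 on none, and 2 could reach an unadjusted p under 0.05. Gli1, the transcriptional effector and target of Hedgehog signalling, was detected on 8 of 8 cerebellum and 2 of 8 rest-of-brain arrays (Fisher's exact test, p = 0.00699, adjusted p = 0.476 over the whole table and 0.0409 among the 3873 probe sets). Gli3, mainly a repressor in the same pathway, had 3 probe sets, detected on 0, 2 and 4 of 8 cerebellum and on 0, 5 and 8 of 8 rest-of-brain arrays, none with a p under 0.05. Of 37 probe sets of 15 Hedgehog genes, 15 were on all 16 arrays and 14 on none. Only 2 of the 37 could reach an unadjusted p under 0.05, and neither did. The list includes the receptor Ptch1, with 2 of 3 probe sets on all arrays, the transducer Smo, also with 2 of 3, and the ligand Shh, with 1 of 2.

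The dorsal neural tube list, 25 probe sets of 14 genes, had 3 with an unadjusted p under 0.05 towards the cerebellum and 2 towards the rest of the brain. The shares over all probe sets were 1.04% and 1.73%. Of 3 Pax3 probe sets, 1 was on 8 cerebellum arrays and 0 rest-of-brain arrays (Fisher's exact test, adjusted p = 0.0501), as Zic2 was, 1 on 8 cerebellum and 2 rest-of-brain arrays, and 1 on none. Of 3 probe sets of Bmp5, a ligand of the bone morphogenetic protein family, 1 was on 7 cerebellum arrays and 1 rest-of-brain array, 1 on all 16 and 1 on none. Rspo1, an enhancer of Wnt signalling, went the other way, on 1 cerebellum and 8 rest-of-brain arrays (p = 0.0014, exact, adjusted p = 0.161). Wnt1, Wnt3a, Lmx1a and Lmx1b, which define the roof plate in the embryo, were on no array.

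Among cerebellar cell types, granule cell markers had 7 of 41 probe sets with an unadjusted p under 0.05 towards the cerebellum. Purkinje cell markers had 5 of 36, and the share over all probe sets was 1.04%. Towards the rest of the brain both lists had 0, against 1.73% of all probe sets. Only 10 granule cell and 7 Purkinje cell probe sets can reach such a p. Of these, 3 of each list passed after adjustment towards the cerebellum, against 5.55% of the 3873. The cerebellar interneuron and Golgi cell list had 2 of 19 towards the cerebellum, 1 of 2 each of Tfap2b and Eomes, and 1 towards the rest of the brain, Grm2. The median over each of these lists was 0 arrays of difference, as over all probe sets and over the 8 Zic probe sets.

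Meningeal cells also express Zic genes. Meningeal markers were detected for 18 to 20 of 27 probe sets in the cerebellum and 17 to 20 in the rest of the brain, so the brain parts overlapped, and 1 probe set had a p under 0.05 (1 of 3 of Col1a2, a collagen, on 7 cerebellum arrays and 1 rest-of-brain array). The markers of other tissue in the rest of the brain were forebrain, with 6 to 13 of 17 in the cerebellum and 14 to 16 in the rest of the brain, thalamus, habenula and midbrain, with 13 to 19 of 27 in the cerebellum and 16 to 21 in the rest of the brain, septum and basal forebrain, with 2 to 7 of 13 in the cerebellum and 5 to 7 in the rest of the brain, and olfactory bulb, with 3 to 5 of 11 in the cerebellum and 4 to 8 in the rest of the brain. An unadjusted p under 0.05 towards the rest of the brain was found for 8 forebrain, 4 thalamus, 2 septum and 0 olfactory bulb probe sets (1.73% of all probe sets), and towards the cerebellum for 0 of these lists' probe sets (1.04% of all). The probe set of Tbr1 and 1 of 2 of Emx1, cortical transcription factors, were on 0 cerebellum and 8 rest-of-brain arrays, the reverse of Zic2. Choroid plexus markers, 2 of which had an unadjusted p under 0.05 towards the rest of the brain, ranged more widely in the cerebellum (7 to 15 of 16) than in the rest of the brain (13 to 14), as did brain stem and spinal cord genes (2 to 16 of 25 in the cerebellum and 3 to 9 in the rest of the brain). For the latter the cerebellum median was 14% and the highest 64%, with WT female cerebellum replicate 2 at 3 of 25. Slc6a4, Hoxb5 and 1 probe set each of Hoxc5 and Hoxa5 were on 2 cerebellum arrays, both KO, and 0 rest-of-brain arrays. In the other direction, 1 Hoxa3 probe set was on 1 cerebellum array, a WT one, and on 0 rest-of-brain arrays. The part of meningeal, choroid plexus or brain stem tissue in the Zic calls was not tested.

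**Figure D4:**
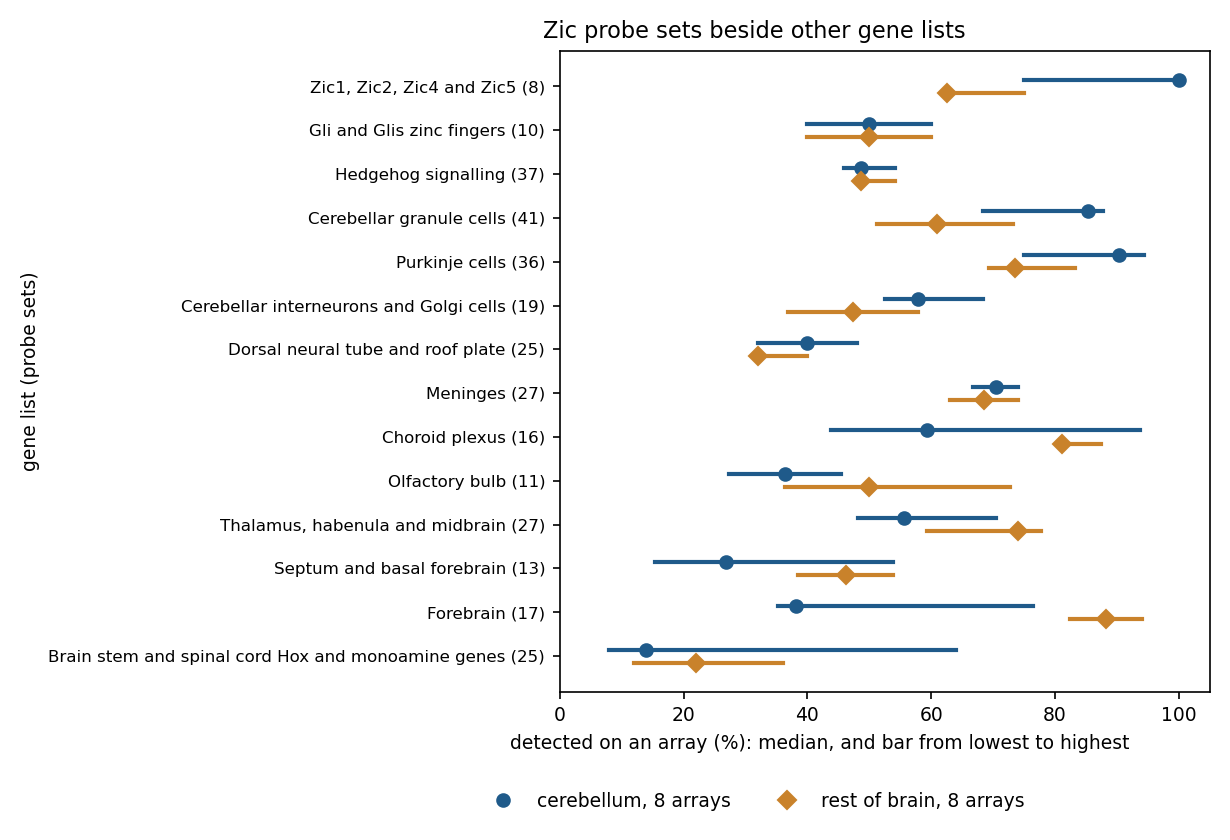
Share of a list's probe sets detected on an array (horizontal axis, %), with the median (point) and the lowest to highest (bar) over 8 cerebellum arrays (blue circles) and 8 rest-of-brain arrays (orange diamonds); numbers in brackets are probe sets. The Zic probe sets have medians of 100% and 62.5%, granule cell markers 85.4% and 61%, and forebrain markers 38.2% and 88.2%.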

How the data were processed

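Total RNA of 16 dissections was run on Affymetrix 3' expression arrays. The submitters' processing notes name MAS5, the study's text speaks of RMA-normalised intensities, and the array its methods name is a human one, although the probe set names belong to a mouse array. The values the authors deposited are scores, 5 distinct numbers whose first byte is 2, 1, 0, -1 or -2. They were read as call levels (level 2, a value above 5e-38, is detected), which no source used here states. Gene symbols came from the platform annotation.

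Each of the 45101 probe sets was tested by Fisher's exact test (two-sided) for cerebellum against rest of brain and for KO against WT, 8 against 8 arrays. Adjustment was by Benjamini-Hochberg over the whole table with a threshold of 0.05, and again over the 3873 probe sets whose number of detected arrays allows a p under 0.05. The factorial analysis of variance of the methods needs intensities and was not run. The tests were tried on simulated calls. Members, lists and tests were chosen with earlier results of these data known. All Zic probe sets are named. Of each list, up to 4 genes with the smallest p under 0.05 are named, and as most alike up to 5 genes with the same call on at least 15 of 16 arrays, genes on a list first. Gli3, Ptch1, Smo, Shh, Wnt1, Wnt3a, Lmx1a and Lmx1b were named after their calls were seen. Each brain was split into both parts, and the methods say that specimens were litter-matched where possible. Arrays of the 2 brain parts may therefore share a mouse, and arrays a litter, but no label says which. Both comparisons treat arrays as separate, and their p-values hold only if they are. The number of arrays is what limits precision. The alternatives tried were other readings of level 1 and of levels below 0, counting by gene, subsets of arrays, permutation within strata, pairing by number and leaving out each array. The difference between genotypes in the brain-part contrast was run again without 1 array after the data were seen. Calculations were made in Python 3.11.15 (scipy 1.17.1, pandas 2.3.3, numpy 2.4.6) and plots with matplotlib 3.10.9.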

Additional observations from a re-analysis of the deposited data

Results flagged for a closer look

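The WT female cerebellum replicate 2 detected 6 of the 8 Zic probe sets, while each of the other 7 cerebellum arrays detected 8, a gap that equals the whole range of the 8 arrays. About 1 in 20 groups would be flagged for a gap by chance in continuous values, where a gap as wide as the whole range does not arise. Counts with so few distinct values were not what that share was worked out for.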

How the results depend on the processing

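Zic probe sets called between the brain parts numbered 0 over the whole table, 1 (Zic2) with probe sets holding a level below 0 left out, 1 (Zic2) by gene, 2 (Zic2 and Zic5 1425666_at) among the 3873 probe sets that can reach a p under 0.05, and 1 to 2 with each array left out in turn, the 2 without WT female cerebellum replicate 2. Over all features the same runs called 0 of 45101, 132 of 42429, 61 of 18194 genes and 662 of 3873. With each array left out, 144 to 257 of 45101 were called, the 257 also without WT female cerebellum replicate 2. Among the probe sets that can reach a p under 0.05 in each run, a set of runs chosen after the data were seen, the number was 2 to 3 with each array left out, the 3 again without WT female cerebellum replicate 2, 2 with marginal calls as detected and 1 by gene. Over all features these runs called 705 to 986 of 4680 to 4861 probe sets with each array left out, the 986 again without that array. With marginal calls as detected they called 641 of 4006 probe sets, and by gene 283 of 1222. With marginal calls as detected, within females, males, KO or WT arrays, with labels permuted within sex and genotype, and with arrays paired by replicate number (the replicate block), 0 passed over the whole table; the smallest p that 4 against 4 arrays (0.0286), the permutation (0.00154) or the pairing (0.00781) allow is too large to pass there. No pairing by replicate number was seen in the calls: the deviations of same-numbered arrays correlated between -0.022 and 0.072. With 2 arrays in a group this cannot show that same-numbered arrays share no mouse or litter. Between KO and WT 0 Zic probe sets were called under every alternative run, the replicate block included. Neither permutation of genotype within sex and brain part nor the replicate block could reach a p under 0.05 for any of them. Too few same-numbered KO and WT arrays differ in their calls. The runs on 4 against 4 arrays (smallest p 0.0286) could not pass over the whole table either. The 0 of those runs therefore decides nothing. Zic4 1421539_at was detected on 12.5 percentage points fewer KO than WT arrays (a difference of -12.5), on 25 points more KO arrays in the cerebellum alone, and on 50 points fewer (-50) in the rest of the brain alone. With each array left out in turn the difference lay between -21.4 and -5.36, -21.4 without WT female cerebellum replicate 2, and none of these passed a test. Zic probe sets detected in 1 genotype of the female cerebellum numbered 0, and 0 to 2 with an array left out, the 2 without WT female cerebellum replicate 1; in the male cerebellum 0 throughout. Genes detected on every array are beyond what calls can compare.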
